A study of Rattus norvegicus with 6 samples.

Results

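The 50 cell cycle and DNA replication genes described here were measured in rat pancreas, without and with acute pancreatitis (AP). They comprise 12 genes of the G1 phase (cyclins D and E, their kinases, kinase inhibitors and E2f1), 15 genes of DNA replication in S phase and 23 genes of mitosis. A gene was taken as measured where a non-control probe of the array carried a RefSeq accession that belongs to its symbol. This held for 39 of the 50 genes, with 40 of the 24684 non-control probes. No probe was matched to Ccnd3, Cdk6, Mcm3, Mcm4, Mcm5, Tk1, Birc5, Bub1b, Kif11, Top2a or Mki67, so the values of these 11 genes are not analysed here.

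All rats were males of 6 weeks. The AP rats had received sodium taurocholate, a bile salt, by retrograde injection into the pancreatic duct (4% solution, 1 mL per kg) and were killed 9 h later; the labels do not say whether control rats had a sham operation. Total RNA was extracted from the pancreas of each rat, depleted of ribosomal RNA, amplified with random primers, labelled with Cy3 and hybridised to 1-colour Agilent arrays. The labels name 3 samples per group, but scans 2 and 3 of each group came from the same array (spot deviations correlated at r = 0.992 and 0.993, against 0.193 to 0.742 in the 13 other pairs of scans), so each group had 2 arrays. All p-values and standard errors therefore rest on 2 arrays per group. Each gene's spread was drawn by limma toward that of all tested probes, so these values do not reflect that gene's arrays alone. All arrays lay on 1 slide, with the control arrays in slots 1 and 2 and the AP arrays in slots 3 and 4, so that position on the slide and group cannot be told apart.

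A cell that leaves rest builds cyclin D with Cdk4 or Cdk6 and cyclin E with Cdk2, which phosphorylate the retinoblastoma proteins and free E2F factors, while inhibitors such as Cdkn1a (p21) and Cdkn1b (p27) hold these kinases back. E2F factors then switch on the genes that license origins, unwind DNA and supply nucleotides in S phase. Genes of mitosis, such as cyclin B, Cdk1, Plk1 and the kinesins, are switched on later through CHR and CCAAT promoter elements, held silent in resting cells by the DREAM complex. In the adult pancreas few acinar cells divide.

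These promoter words are shown first, because most S phase and mitotic genes tested, described below, were higher in AP. RefSeq promoters of the assembly GRCr8 (300 bases, 250 before and 50 after the start) were found for 37 of the 50 genes. The stretches below are the 150 bases before the start, 5′ to 3′ on the gene's strand, chosen after the matches were seen. Mcm6 and Mcm7 stand for replication genes with an E2F word, Cdk1 and Cdc20 for mitotic genes with a CHR word, and Cdkn1a is the only gene of the 33 tested that was called lower. Capitals mark E2F words, CHR words and CCAAT boxes on either strand. In Mcm6 a pair of E2F words on opposite strands overlap, and in Mcm7 the E2F word overlaps a CCAAT box.
Mcm6, chr13:42404353-42404502, minus strand: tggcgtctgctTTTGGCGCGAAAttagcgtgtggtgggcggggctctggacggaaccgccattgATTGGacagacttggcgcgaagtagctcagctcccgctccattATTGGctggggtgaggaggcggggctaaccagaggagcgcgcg
Mcm7, chr12:22163179-22163328, minus strand: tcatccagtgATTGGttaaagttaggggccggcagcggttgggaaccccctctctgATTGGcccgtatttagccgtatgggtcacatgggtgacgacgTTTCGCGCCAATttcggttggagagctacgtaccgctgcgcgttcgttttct
Cdk1, chr20:19265143-19265292, plus strand: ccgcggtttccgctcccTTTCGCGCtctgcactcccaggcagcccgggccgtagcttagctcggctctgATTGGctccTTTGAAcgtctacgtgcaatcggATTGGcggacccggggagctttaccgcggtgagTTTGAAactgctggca
Cdc20, chr5:137255800-137255949, minus strand: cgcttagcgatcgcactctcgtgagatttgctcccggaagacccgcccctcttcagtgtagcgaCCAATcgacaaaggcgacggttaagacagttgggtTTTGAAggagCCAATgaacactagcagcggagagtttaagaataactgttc
Cdkn1a, chr20:7150782-7150931, plus strand: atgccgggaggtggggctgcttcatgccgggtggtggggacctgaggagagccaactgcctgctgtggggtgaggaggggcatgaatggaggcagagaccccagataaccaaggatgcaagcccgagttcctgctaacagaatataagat
The stretch of Cdk1 held an E2F word, CHR words and CCAAT boxes, that of Cdc20 a CHR word and CCAAT boxes without an E2F word, and that of Cdkn1a none of these.

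The E2F words searched were TTTCCCGC, TTTCGCGC, TTTGCCGC and TTTGGCGC, the CHR words TTTGAA and TTCGAA, and the box CCAAT, on both strands, with overlaps between motifs allowed. An E2F word lay in 9 of 12 promoters of S phase genes (75%), in 1 of 18 of mitotic genes (5.56%) and in 0 of 7 of G1 genes. Of the 7139 promoters whose genes were tested on the array 3.59% held one, and of all 33469 promoters 2.14%. A CHR word lay in 12 of 18 mitotic promoters (66.7%), in 3 of 12 S phase promoters (25%) and in 0 of 7 G1 promoters, against 14.8% of the tested genes and 19.7% of all promoters. CCAAT was found in 13 of 18 mitotic (72.2%), 7 of 12 S phase (58.3%) and 3 of 7 G1 promoters (42.9%), against 38.7% of the tested genes and 37.5% of all promoters. The GC box GGGCGG, a word of many promoters, was in 6 of 7 G1, 10 of 12 S phase and 12 of 18 mitotic promoters, against 57.1% of the tested genes and 33.1% of all. The median GC content was 66.3% in G1, 60% in S phase and 57.5% in mitotic promoters and 59.3% in those of the tested genes. These matches describe letters in a window and were not tested.

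**Figure D1:**
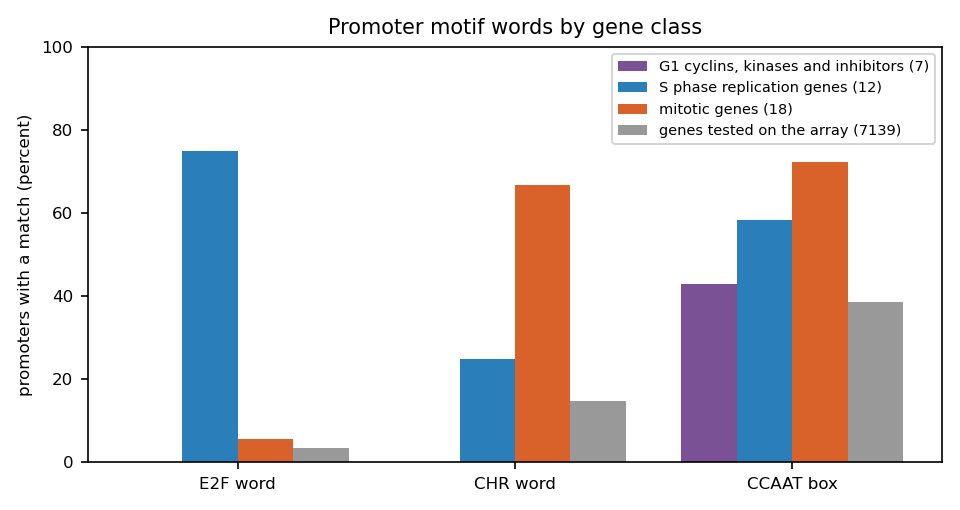
Share of promoters (percent, y axis) that hold an E2F word, a CHR word or a CCAAT box, for the 7 G1, 12 S phase and 18 mitotic genes with a RefSeq promoter and for the 7139 tested genes with one. E2F words were in 75% of the S phase promoters and CHR words in 66.7% of the mitotic promoters; no G1 promoter held either.

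Levels are given below as log2 signal relative to the 75th percentile of the same array, and levels of different genes are not compared, since probes differ in brightness. That percentile was an intensity of 140 to 147 on the control scans and 70.1 to 77.7 on the AP scans, and 13039 to 15388 probes were well above background on the control scans against 10905 to 11367 on the AP scans. A probe was tested where 3 or more of the 6 scans had it well above background, and the brightest probe stood for its gene, which left 8726 genes; a change was called at a limma p below 0.05 after Benjamini-Hochberg adjustment across the 13220 tested probes. Of all genes tested 24.1% were higher and 31.9% lower in AP (56.0% either way), with a median change of -0.03. Of all probes tested 26.9% were higher and 28.2% lower (55.1% either way). Acinar enzymes were present in both groups, among them Ctrc, the protease chymotrypsin C, and Cela2a, an elastase, each well above background on all 6 scans.

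Of the 50 genes, 33 passed this filter with a usable value, and 24 of them (72.7%) were higher and 1 lower in AP, with a median change of 1.37. The other 8 did not pass the test. The 24 include Prc1, which had a usable value on 1 control array only; without it 23 of 32 were higher. Genes that were dim in control and passed the filter through the AP scans had to differ, so this count does not describe all 50 genes. Of these genes 25 were well above background on all 6 scans, of which 18 were higher and 1 lower. In a separate fit of such probes only, where Mcm2 and Ube2c also passed, 2064 of 6756 genes were higher and 2218 lower. The array values of the groups did not overlap for 32 of the 33 genes, where 37.2% of all genes tested lay wholly higher and 42.7% wholly lower in AP. In RNA of whole pancreas, more dividing cells and more of these RNAs per cell cannot be told apart.

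The classes differed in their counts. Of the G1 genes 3 of 7 were higher and 1 lower (median change 0.40), of the S phase genes 9 of 10 were higher (median 1.54) and of the mitotic genes 12 of 16 (median 1.49). Leaving out Prc1, 11 of 15 mitotic genes were higher. Without scaling between arrays, where the median of all genes shifted to -0.99, the counts were 0 higher and 4 lower for G1, 6 higher and 1 lower (Pcna) for S phase and 8 higher and 1 lower (Aurkb) for mitosis. Of all genes, 5.31% were higher and 62.4% lower without scaling. The medians were then -0.56 for G1, 0.58 for S phase and 0.53 for mitosis, so that the G1 median changed its sign. With normexp background correction and the 75th percentile, 0 of 7 G1, 6 of 10 S phase (median 0.73) and 8 of 16 mitotic genes (median 0.74) were higher. In that setting 6.45% of all genes were higher and 16.1% lower. All normexp settings here add an offset of 50 to each intensity, which by design makes the changes of dim genes smaller. Their smaller changes and lost calls therefore cannot be read as an effect of background correction alone. The difference between the classes was not tested.

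**Figure D2:**
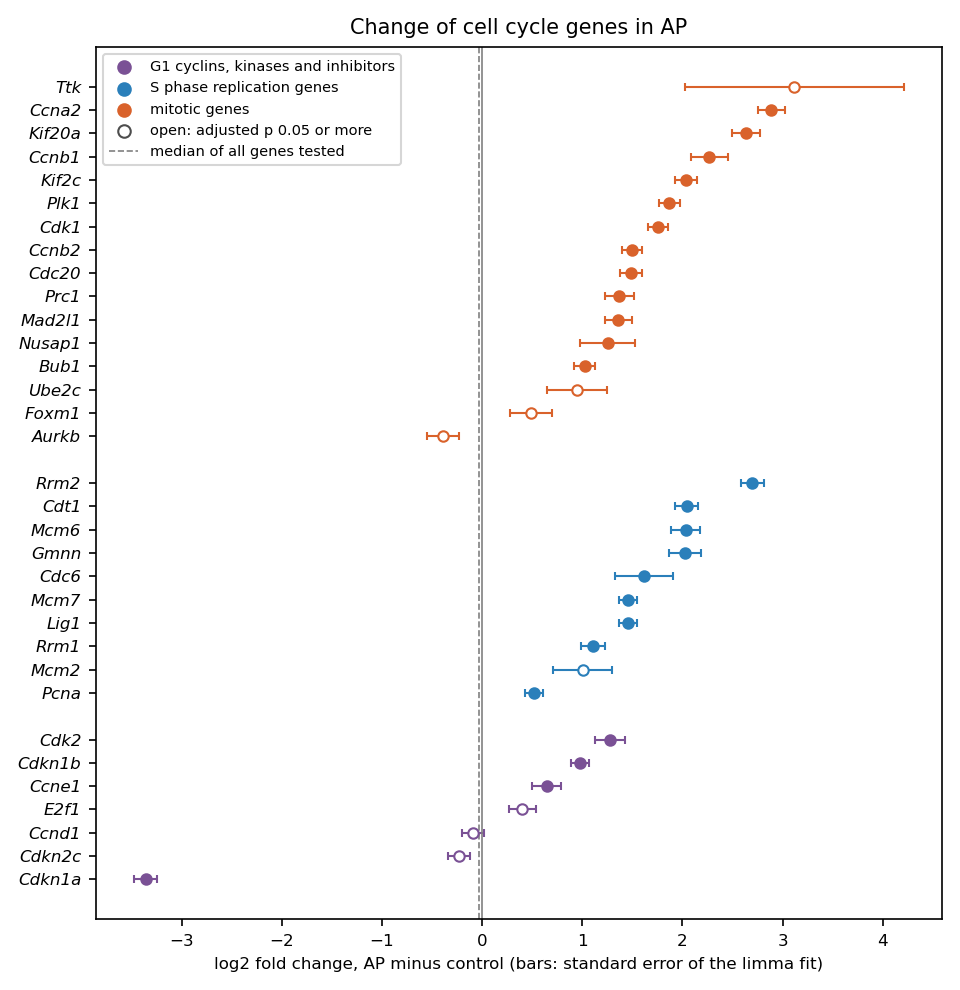
Log2 fold change, AP minus control (x axis), of the 33 tested genes in their classes, with the standard error of the limma fit over 2 arrays per group; filled points have an adjusted p below 0.05. Most S phase and mitotic genes lie between 1 and 3, Cdkn1a lies at -3.36, and the dashed line is the median of all genes tested at -0.03.

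The G1 cyclins were not higher as a group. For Ccnd1, cyclin D1, which couples growth signals to the cycle, the control arrays read -0.86 and -0.85 and the AP arrays -1.03 and -0.85. The values overlap, and the change of -0.09 ± 0.11 (SE) had a limma adjusted p of 0.542. Ccne1, cyclin E1, which opens S phase with Cdk2, read -0.62 and -0.65 in control and -0.15 and 0.17 in AP. Both AP arrays were higher, by 0.64 ± 0.15 (1.56-fold, limma adjusted p = 0.0294), but the call was lost in 3 of the 4 fits that left out 1 array (adjusted p 0.0716 without AP array 2, 0.106 without control array 1 and 0.123 without control array 2). Without scaling the change was -0.31.

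Of the kinases, Cdk2, the partner of cyclin E, read -2.55 and -2.61 in control and -1.47 and -1.15 in AP. It was 2.41-fold higher without overlap (1.27 ± 0.15, limma adjusted p = 0.00604), but not called with normexp and the 75th percentile (0.58, adjusted p = 0.119), with normexp and quantile normalization (0.23, 0.0531) or without scaling (0.31, 0.109). Every spot of the Cdk4 probe, the partner of cyclin D, carried an outlier mark of the scanner software, so it was not among the tested genes. With marked spots kept, Cdk4 read 7.27 and 7.31 in control and 8.12 and 8.13 in AP, a rise of 0.84 ± 0.09 (limma adjusted p = 0.0051).

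The kinase inhibitors went in different directions. Cdkn1a (p21), the inhibitor induced by p53 and by stress, read 4.36 and 4.53 in control and 1.12 and 1.05 in AP. Both AP arrays were far below both control arrays, by 3.36 on the log2 scale (10.3-fold lower, SE 0.11, limma adjusted p = 0.000715), and over all 20 alternatives the change lay between -4.32 and -2.80. Cdkn1b (p27), which holds cyclin E and Cdk2 inactive in resting cells, read -0.72 and -0.70 in control and 0.28 and 0.26 in AP. It rose, by 0.98 ± 0.09 (1.97-fold, limma adjusted p = 0.00371), with no call without scaling (0.02, adjusted p = 0.888) and with normexp and the 75th percentile (0.52, 0.153). Cdkn2c (p18), an inhibitor of Cdk4 and Cdk6, read -1.05 and -0.98 in control and -1.16 and -1.33 in AP, slightly lower without overlap, and its change of -0.23 ± 0.11 did not pass (limma adjusted p = 0.165).

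E2f1, the transcription factor that the retinoblastoma protein restrains, read -1.40 and -1.57 in control and -0.98 and -1.18 in AP. The groups did not overlap, and the change of 0.40 ± 0.13 did not pass the test (limma adjusted p = 0.0712); without scaling it was -0.56. Ccnd2 and Ccne2, further cyclins of G1, were below the filter: Ccnd2 was well above background on 1 control scan and no AP scan, and Ccne2 on no scan.

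**Figure D3:**
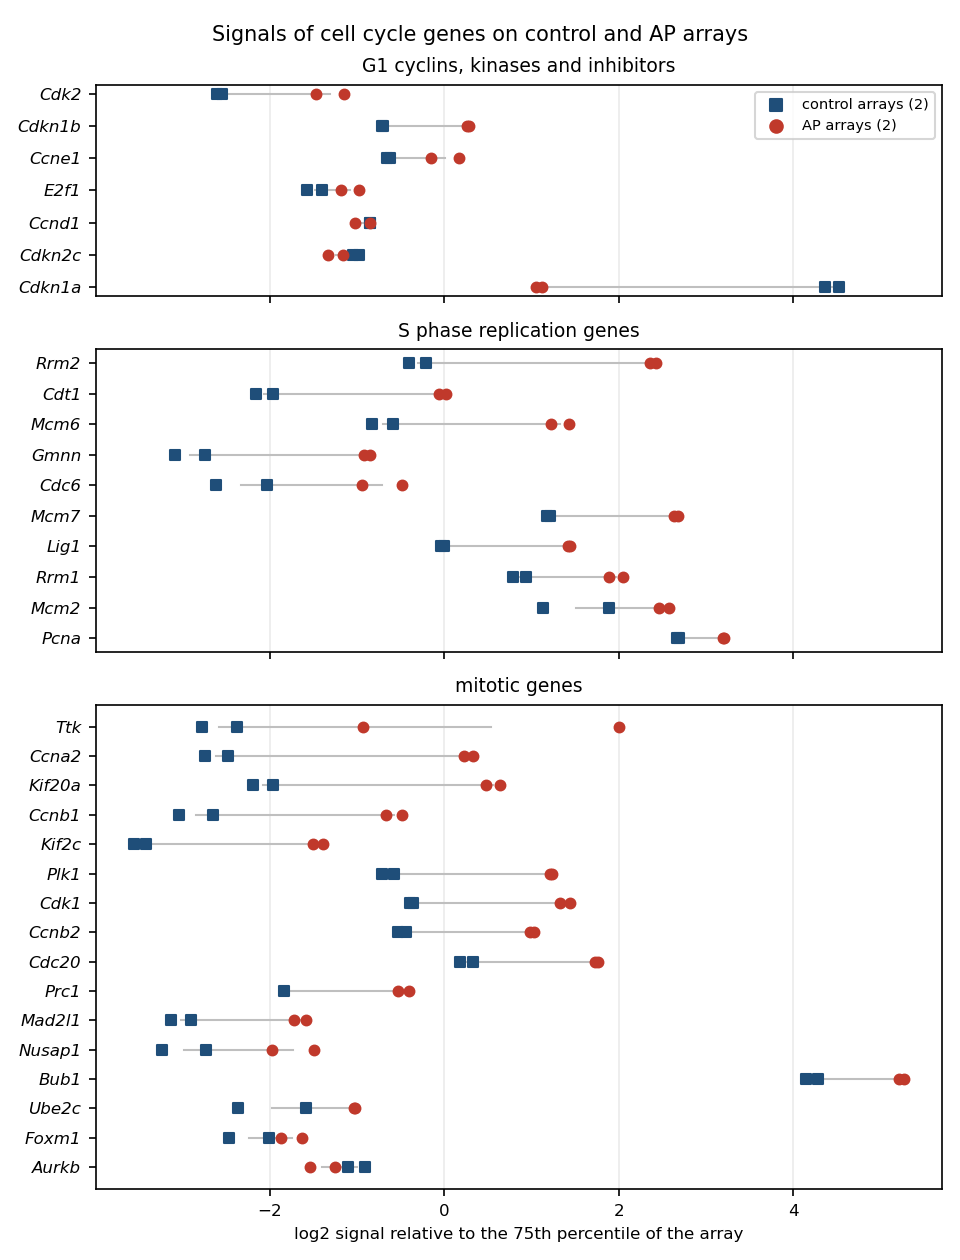
Log2 signal relative to the 75th percentile of each array (x axis) of the 33 tested genes; squares are the 2 control arrays, circles the 2 AP arrays, and grey lines join the group means. For Cdkn1a both circles lie left of the squares, for the S phase genes all circles lie right of the squares (Pcna turns without scaling), and the circles of Ttk lie apart at -0.93 and 2.01.

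Of the 10 S phase genes tested 9 were called higher, all but Mcm2; Pcna turned lower without scaling. Origin licensing is done by Cdc6 and Cdt1, which load the Mcm helicase, and is blocked after use by geminin, the product of Gmnn. Cdt1 read -2.16 and -1.97 in control and -0.06 and 0.02 in AP. Both AP arrays were higher, 4.12-fold (2.04 ± 0.12, limma adjusted p = 0.00151). Gmnn read -2.74 and -3.08 in control and -0.93 and -0.85 in AP, 4.07-fold higher (2.02 ± 0.16, limma adjusted p = 0.00262). The groups overlapped for neither gene. Cdc6 read -2.03 and -2.62 in control and -0.94 and -0.48 in AP, 3.07-fold higher (1.62 ± 0.29, limma adjusted p = 0.016); the arrays of a group lay further apart, and the call was lost without control array 2 (adjusted p = 0.0612) and without AP array 2 (0.0657).

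The Mcm proteins form the helicase that unwinds DNA at the fork. Mcm6 read -0.83 and -0.58 in control and 1.22 and 1.43 in AP, 4.09-fold higher (2.03 ± 0.15, limma adjusted p = 0.00232). Mcm7 read 1.21 and 1.18 in control and 2.67 and 2.63 in AP, 2.75-fold higher (1.46 ± 0.09, limma adjusted p = 0.0018). Neither gene's groups overlap. Mcm2 read 1.89 and 1.13 in control and 2.46 and 2.58 in AP. Its AP arrays were also higher, but its control arrays lay apart (SD 0.53, n = 2), and the change of 1.01 ± 0.29 did not pass (limma adjusted p = 0.054); it passed in 10 of the 20 alternatives.

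At the fork, Pcna is the sliding clamp that holds the polymerase, and Lig1 joins the Okazaki fragments. Pcna read 2.69 and 2.67 in control and 3.21 and 3.19 in AP, a small rise without overlap (1.43-fold, 0.52 ± 0.09, limma adjusted p = 0.0152). It was the smallest change among the 10 S phase genes tested, at -0.44 without scaling, and its call was lost in each of the 4 fits that left out 1 array (adjusted p 0.0618 to 0.0731). Lig1 read -0.04 and -0.0040 in control and 1.42 and 1.44 in AP, 2.74-fold higher with close agreement within each group (1.45 ± 0.09, limma adjusted p = 0.00178).

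Nucleotides for replication come from ribonucleotide reductase, with a large subunit from Rrm1 and the cycle-regulated small subunit from Rrm2. Rrm2 read -0.40 and -0.21 in control and 2.43 and 2.36 in AP. This rise of 6.49-fold (2.70 ± 0.12, limma adjusted p = 0.000971) was the largest of the 10 S phase genes tested. Rrm1 read 0.79 and 0.94 in control and 2.05 and 1.89 in AP, 2.16-fold higher (1.11 ± 0.12, limma adjusted p = 0.00516). Both subunits were higher on both AP arrays, but Rrm1 lost its call with normexp and the 75th percentile (0.63, adjusted p = 0.0743) and without scaling (0.15, 0.412). Tyms, thymidylate synthase, was below the filter, with 2 control scans and no AP scan well above background.

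Among the mitotic genes, the cyclins and their kinase were higher without overlap. Ccna2, cyclin A2, which serves both S phase and entry into mitosis, read -2.74 and -2.48 in control and 0.32 and 0.23 in AP, 7.40-fold higher (2.89 ± 0.14, limma adjusted p = 0.00108). Ccnb1, the cyclin of mitotic entry, read -2.65 and -3.04 in control and -0.67 and -0.49 in AP, 4.82-fold higher (2.27 ± 0.18, limma adjusted p = 0.00278). Ccnb1 was well above background on 2 of the 3 control scans and on all 3 AP scans. Ccnb2, the other B cyclin, rose 2.81-fold (1.49 ± 0.10, limma adjusted p = 0.00193), from -0.44 and -0.53 to 0.98 and 1.03. Cdk1, the mitotic kinase, read -0.36 and -0.39 in control and 1.32 and 1.44 in AP, 3.37-fold higher (1.75 ± 0.10, limma adjusted p = 0.00151).

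The regulators of mitotic entry did not move alike. Plk1, a kinase that drives entry and spindle assembly, read -0.58 and -0.71 in control and 1.24 and 1.21 in AP, 3.65-fold higher (1.87 ± 0.10, limma adjusted p = 0.0014). Foxm1, a transcription factor of G2 and mitotic genes, read -2.01 and -2.47 in control and -1.63 and -1.87 in AP. The groups lay close together, and the change of 0.49 ± 0.21 did not pass (limma adjusted p = 0.128), at -0.47 without scaling. Aurkb, the kinase that corrects faulty attachments of chromosomes to the spindle, read -1.10 and -0.90 in control and -1.54 and -1.25 in AP. It was the only mitotic gene tested with lower values in AP, and the change of -0.39 ± 0.16 did not pass (limma adjusted p = 0.111). Aurka, the related kinase of the spindle poles, and its activator Tpx2 were below the filter, with 1 and 0 control scans and no AP scan well above background.

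The spindle checkpoint delays chromosome separation until all kinetochores are attached. Its genes Bub1 and Mad2l1 were higher: Bub1 read 4.28 and 4.14 in control and 5.21 and 5.26 in AP (2.03-fold, 1.02 ± 0.11, limma adjusted p = 0.00458). Mad2l1 read -2.90 and -3.13 in control and -1.59 and -1.72 in AP (2.57-fold, 1.36 ± 0.13, limma adjusted p = 0.00405). Neither overlapped. Both calls were lost without scaling (0.07 for Bub1 and 0.40 for Mad2l1) and with normexp and the 75th percentile (0.63 and 0.52; adjusted p = 0.113 and 0.169). Ttk, the checkpoint kinase Mps1, read -2.38 and -2.78 in control but 2.01 and -0.93 in AP. Both AP arrays were above both control arrays but lay far apart, so that the largest rise of the 33 genes, 3.12 ± 1.09, did not pass (limma adjusted p = 0.0818); it was 1.65 without AP array 1 and 4.59 without AP array 2.

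The anaphase-promoting complex ends the checkpoint with its activator Cdc20 and its ubiquitin carrier Ube2c. Cdc20 read 0.18 and 0.33 in control and 1.76 and 1.72 in AP, 2.80-fold higher without overlap (1.49 ± 0.11, limma adjusted p = 0.0022). Ube2c read -1.59 and -2.36 in control and -1.04 and -1.03 in AP. Its control arrays lay apart (SD 0.55, n = 2), and the change of 0.94 ± 0.30 did not pass (limma adjusted p = 0.065), at -0.013 without scaling.

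Motors and spindle proteins divide the chromosomes and then the cell. Kif20a, a kinesin of cytokinesis, read -2.19 and -1.96 in control and 0.47 and 0.64 in AP, 6.21-fold higher (2.63 ± 0.14, limma adjusted p = 0.00127). Kif2c, a kinesin that shortens microtubules at centromeres, was not well above background on any control scan and was at least 4.10-fold higher in AP (limma adjusted p = 0.00136; fitted levels -3.49 in control and -1.45 in AP). Here the bright AP mean was set against the higher of the probe's own signal and the dimmest signal well above background on each array; the probe's own was the higher, so the bound equals the fitted fold. The gene passed the filter through its AP scans only, and with normexp and the 75th percentile the change was 0.63 with no call (adjusted p = 0.0872). A further Kif2c probe was also higher, with a fitted change of 2.58.

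The last pair of this group was measured less firmly. Nusap1, which bundles spindle microtubules, read -3.24 and -2.73 in control and -1.49 and -1.97 in AP, 2.38-fold higher (1.25 ± 0.27, limma adjusted p = 0.0255). It was well above background on 2 control scans, both of control array 2, and on 1 AP scan, that of AP array 1. The groups did not overlap, but the call was lost in 9 of 19 alternatives, among them the fits without control array 1 (adjusted p = 0.0898), without control array 2 (0.0526) and without AP array 1 (0.0853). Prc1, which bundles the microtubules of the midzone, had a usable value on 1 control array only, at -1.84, and read -0.53 and -0.40 in AP. Its change of 1.37 was called, although only 1 control value stood behind it. The fit had no spread between control arrays for this gene, and the call was lost without AP array 1 or 2. With the marked spots kept, control array 2 read 2.54, above both AP arrays. The change was then -0.83 ± 1.62 (limma adjusted p = 0.696), so the direction of Prc1 is not settled here. Without Prc1, 23 of 32 genes and 11 of 15 mitotic genes were higher.

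The calls were also counted by promoter word. With an E2F word, 6 of 7 tested genes were higher, and without one 15 of 18 were higher and 1 lower. With a CHR word, 9 of 11 were higher, and without one 12 of 14 were higher and 1 lower. The 8 tested genes without a promoter entry held 3 that were higher. These are descriptions of small counts with no test.

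Further genes of the cycle were taken from 7 lists. These lists, and the markers below, were chosen with results of these data known. Of 29 other replication factors tested, 21 were higher and 1 lower (median change 0.97). Cdc45, a subunit of the active helicase, rose 4.28-fold (2.10 ± 0.09, limma adjusted p = 0.000971), and Rfc5, a subunit of the clamp loader, 4.30-fold (2.11 ± 0.16, limma adjusted p = 0.00242). Orc4, a subunit of the origin recognition complex, was 2.21-fold lower (-1.15 ± 0.17, limma adjusted p = 0.00997), with adjusted p 0.0527 and 0.0642 without control array 1 and 2. Of 23 other mitotic factors tested, 19 were higher and 0 lower (median 1.92), with Hmgb2, a chromatin protein of dividing cells, 7.52-fold and Aspm, a protein of spindle poles, 7.01-fold higher. Without scaling, 8 of the other replication factors were higher and 8 lower, and 16 of the other mitotic factors were higher and 2 lower, where 5.31% of all genes were higher and 62.4% lower. With normexp and the 75th percentile, 5 of the 29 replication factors (median 0.43) and 14 of the 23 mitotic factors (median 0.77) were higher, where 6.45% of all genes were higher and 16.1% lower.

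Of 6 genes of the RB, E2F and DREAM complexes tested, 1 was higher and 0 lower (median -0.0026); it was Rbl2 (p130), the pocket protein of resting cells, 2.50-fold higher (1.32 ± 0.21, limma adjusted p = 0.0123), with adjusted p 0.0663 and 0.0553 without control array 1 and 2. Of 9 other CDK regulators, 2 were higher, the inhibitory kinase Pkmyt1 (2.55-fold) and the inhibitor locus Cdkn2a (1.83-fold, at -0.08 on the log2 scale without scaling). In the same list 3 were lower, among them Ccnh, the cyclin of the CDK-activating kinase (2.34-fold), and Cables1 (1.54-fold). The shares of this list, 22.2% higher and 33.3% lower, lay near the 24.1% and 31.9% of all genes tested. Calls were lost for Ccnh without control array 1 or 2 (limma adjusted p = 0.0553 and 0.0541), and without control array 2 or AP array 2 for Cdkn2a (0.0677 and 0.0508) and Cables1 (0.0603 and 0.0530). Without scaling, 5 of the 6 and 4 of the 9 were lower and 0 higher, where 62.4% of all genes were lower. With normexp and the 75th percentile, 1 of the 6 was higher and 0 lower, and of the 9 none was higher and 1 lower. In that setting 6.45% of all genes were higher and 16.1% lower.

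Of 16 p53 targets and growth arrest genes tested, 9 were lower (56.2%) and 1 higher (6.25%), against 31.9% and 24.1% of all genes tested. The median change was -0.66 by the fit and -0.46 with the 3 genes that have only a bound set to it. Gadd45g, a growth arrest gene induced by stress, read 3.44 and 3.58 in control and 0.45 and 0.62 in AP, 7.88-fold lower (-2.98 ± 0.12, limma adjusted p = 0.000913). Phlda3, a p53 target that restrains Akt, was not well above background on AP scans and was at least 2.91-fold lower (limma adjusted p = 0.000626). Phlda3 passed the filter through its control scans only, so it had to differ and its p-value adds no support. With normexp background correction and the 75th percentile its change was -0.32 with no call (adjusted p = 0.397), and with normexp and quantile normalization -0.64, both smaller falls than the bound. Btg1, an antiproliferative gene, was the 1 that was higher (1.88-fold, 0.91 ± 0.18, limma adjusted p = 0.0192), at -0.05 without scaling and with no call in 3 of the 4 fits without 1 array (adjusted p 0.0576 to 0.0951). Cdkn1a, described above, is a target of p53 too, and it was lower like 9 of these 16. With normexp and the 75th percentile 4 of the 16 were lower and 0 higher (median -0.20), where 16.1% of all genes were lower and 6.45% higher. Without scaling 13 of the 16 were lower and 0 higher, where 62.4% of all genes were lower and 5.31% higher.

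Of 13 genes of cell cycle ubiquitin ligases tested, 3 were higher and 5 lower (median -0.21). These shares, 23.1% higher and 38.5% lower, lay near the 24.1% and 31.9% of all genes tested. Fbxo5, the E2F-driven inhibitor of the anaphase-promoting complex, rose 4.25-fold, and Btrc, a substrate receptor, 2.85-fold, with no call for Btrc without control array 1 or 2 (limma adjusted p = 0.116 and 0.122). Cdc16 and Cdc27, subunits of that complex, were 1.83-fold and 1.70-fold lower. With normexp and the 75th percentile 2 of the 13 were higher and 3 lower, where 6.45% of all genes were higher and 16.1% lower. Of 8 genes of the DNA damage checkpoint and recombination tested, 3 were higher and 0 lower (median 0.47), among them Brca2 (2.65-fold), which acts in homologous recombination. Without scaling, 1 of the 8 was higher and 3 were lower, where 5.31% of all genes were higher and 62.4% lower. With normexp and the 75th percentile 0 were called.

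**Figure D4:**
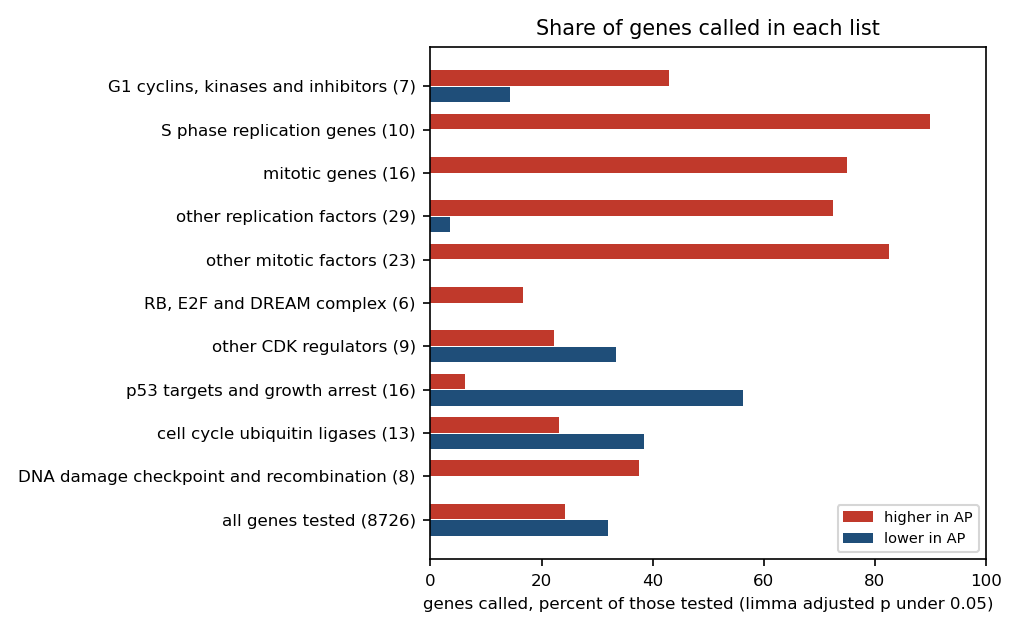
Share of tested genes higher (red) and lower (blue) in AP at a limma adjusted p below 0.05 (percent, x axis), for the 3 classes, the 7 further lists and all genes, with the number tested in brackets. S phase genes reach 90% higher and p53 targets 56.2% lower, against 24.1% and 31.9% of all genes; without scaling, 6 of the 10 S phase genes were higher and 1 lower, and with normexp and the 75th percentile 6 were higher.

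Markers of other cell types moved with these counts. Of T and NK cell markers 12 of 15 tested were higher and 1 lower, and their summed signal, in units of the array's 75th percentile, was 13.7 to 15.8 on control scans and 64.2 to 74.5 on AP scans. Cd3d was higher, from a mean of -0.03 to 3.47, and Cd8b, at 3.08 and 3.90, did not pass (limma adjusted p = 0.169). Of B and plasma cell markers 8 of 9 were higher, with a summed signal of 2.62 to 2.70 against 40.6 to 41.6, among them Pou2af1 (4.45 higher on the log2 scale) and Mzb1 (4.84 higher). Cd79b, a defining marker of B cells, was well above background on no control scan and on 3 of 3 AP scans, while Cd4 and Gzmb were so on no scan. Of germinal centre markers, Bcl6 and S1pr2 were lower, at a summed 5.17 to 5.49 against 2.64 to 2.72, and Mybl1 was well above background on no scan. The part of lymphocytes in the rise of the S phase and mitotic genes was not tested.

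Other marker lists fell or were mixed, where 24.1% of all genes tested were higher and 31.9% lower. Adipocyte markers were lower in 7 of 8 (summed signal 459 to 465 against 17.0 to 17.2), erythroid in 5 of 6 with 1 higher (631 to 732 against 30.3 to 31.3), fibroblast in 5 of 7 (83.7 to 85.8 against 27.4 to 33.1 over the 6 with a value on every scan) and duct markers in 4 of 7 (22.3 to 23.1 against 9.32 to 9.71). Neutrophil markers were lower in 4 of 7 and higher in 2 (22.8 to 25.0 against 1.75 to 2.74). S100a8 was at least 90.7-fold, Lcn2 14.3-fold, Csf3r at least 3.07-fold and Camp at least 1.89-fold lower in AP. S100a8, Csf3r and Camp passed the filter through their control scans only. Ncf1 and Fcgr3a were 2.34-fold and 1.64-fold higher. Which arrays are control and which are AP was taken from the labels alone and was not checked in another way. Macrophage markers were higher in 2 and lower in 2 of 10, at 39.6 to 40.1 against 40.0 to 41.4 over the 8 with a value on every scan. Endothelial markers were higher in 1 and lower in 2 of 3 (2.89 to 3.06 against 2.81 to 2.91) and islet markers higher in 1 and lower in 2 of 5 (8.24 to 10.3 against 4.05 to 4.69). Acinar markers were higher in 9 and lower in 1 of 16 (93.1 to 93.5 against 108 to 119). Without scaling 1 was higher and 7 lower, where 5.31% of all genes were higher and 62.4% lower. Cdkn1a and 9 of the 16 p53 targets and growth arrest genes fell beside the adipocyte, erythroid, fibroblast, duct and neutrophil lists. The summed islet signal was lower too. The part of those cells in the fall of Cdkn1a and these genes was not tested.

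The calls held to different degrees. Of the 25 genes that changed, 14 kept call and direction in all alternatives that could be run for them: Cdkn1a, lower, and 13 that were higher. These were Cdt1, Gmnn, Mcm6, Mcm7, Lig1 and Rrm2 of S phase and Ccna2, Ccnb1, Ccnb2, Cdk1, Plk1, Cdc20 and Kif20a of mitosis. None of the 3 G1 genes that were higher did so.

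**Figure D5:**
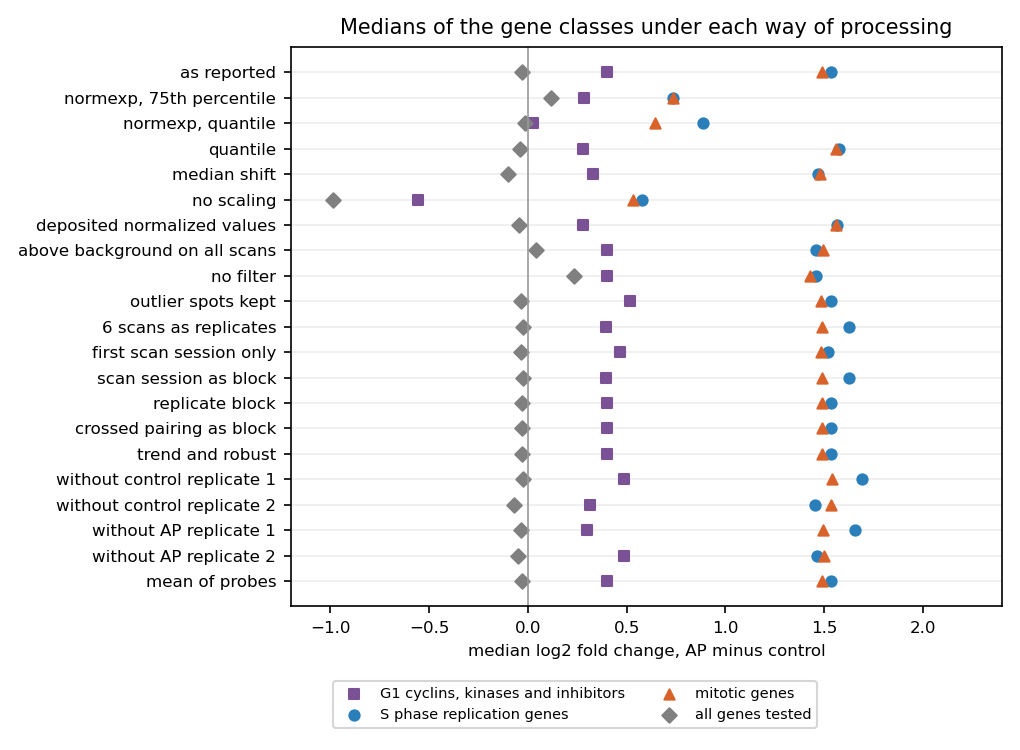
Median log2 fold change, AP minus control (x axis), of the G1, S phase and mitotic genes and of all genes tested, as reported and under 20 alternatives (y axis). The S phase and mitotic medians stay above 0.5 throughout; the G1 median is 0.40 as reported and -0.56 without scaling, where the median of all genes is -0.99.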

How the data were processed

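The deposited scanner tables give each spot as an intensity, background-subtracted and spatially detrended by Agilent Feature Extraction 11.0.1.1, per the file headers, with no scaling between arrays. The deposited normalized table is in log2; no header or label records the steps behind it, and it served as an alternative only. Spots with an outlier mark were left out, the log2 intensities of a probe averaged, and the array's 75th percentile subtracted. Scans correlating above 0.9 in spot deviations were averaged as 1 array. A probe had to be well above background on 3 or more of 6 scans (13225 probes, of which 13220 could be fitted). limma 3.58.1 in R 4.3.3 (lmFit, eBayes) compared AP with control, two-sided, with 2 residual degrees of freedom and no covariate. The brightest probe stands for a gene. The fit was tested on simulated data first. Tables and figures were made in Python 3.11.15 with numpy 2.4.6, pandas 2.3.3 and matplotlib 3.10.9. The number of arrays limits the precision; nothing says whether each array is a separate animal beyond the labels' replicate numbers.

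Gene names came from RefSeq accessions (14286 probes named, 10398 not). All 50 genes are named whatever their result; from each further list, up to 2 higher and 2 lower genes with the largest change; from each marker list, counts, the summed signal and at most the 2 brightest genes, with the few others named chosen after their values were seen. A few genes under this rule are not reported here. The genes, lists, tests and alternatives were chosen with earlier results of these data known. The same replicate numbers did not pair the arrays: their deviations from group means correlated at -0.214 over 13149 probes.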

Additional observations from a re-analysis of the deposited data

How the results depend on the processing

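Of the 20 alternatives, normexp background correction, with its offset of 50, and scaling moved the counts of members most. With 24 members higher and 1 lower as reported, normexp background correction with the 75th percentile gave 14 higher, and no scaling gave 14 higher and 6 lower. For G1, 3 higher became 0 with normexp and the 75th percentile, 1 with normexp and quantile normalization and 0 without scaling, and 1 lower became 4 without scaling. S phase and mitotic members gained 1 lower each without scaling, where 62.4% of all genes were lower. Taking the 6 scans as replicates, or the scan session as a block, gave 3 members lower, 2 of them G1 and 1 mitotic. Over all probes, 3557 higher and 3725 lower became 934 and 1721 with normexp and the 75th percentile and 768 and 7795 without scaling; 2158 were higher with a median shift and 6800 with no filter. The share of called genes that were higher was 43.1% as reported, 28.7% with normexp and the 75th percentile, 7.83% without scaling and 56.8% with no filter.

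Leaving out 1 array in turn, with the lone array assumed to vary like the other group, gave 20 to 22 members higher and 1 lower, 2 to 3 G1, 7 to 9 S phase and 11 to 12 mitotic members higher, 2121 to 2742 probes higher and 2517 to 3100 lower. The lowest count of higher probes came without control array 2. The replicate block, which the pairing check did not bear out, gave 20 members higher and 1 lower and 2580 and 2936 probes. A crossed pairing, added after the deviations were seen, gave 25 members higher and 1 lower and 3677 and 3615 probes.

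The direction turned for Ccnd1 (0.091), Cdkn2c (0.063) and Aurkb (0.062) with normexp and the 75th percentile, for Ccne1 (-0.31), E2f1 (-0.56), Pcna (-0.44), Foxm1 (-0.47) and Ube2c (-0.013) without scaling, and for Prc1 with the deposited normalized values (-0.74) and with marked spots kept (-0.83). Leaving out scaling lowers the change of each member with 2 arrays per group by the same amount (shift -0.957), so these turns follow from the size of the change alone; setting that alternative aside, 14 members still kept their call throughout. Other causes were not tested. With all scans required above background, 8 members could not be tested, among them Gmnn, Ccnb1 and Kif2c, and Prc1 not without control array 1. Signal over background limits the dim members: besides Prc1, which lacks values through marked spots, 7 of the 33 were not well above background on every scan.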
